A study of Saccharomyces cerevisiae with 72 samples.

Results

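Ume6 ChIP-seq peaks had summits at 1562 positions that all 3 replicates of SK1 budding yeast shared. Of these, 495 (31.7%) lay inside the annotated rows of protein-coding genes. A position was counted where a peak summit of replicate 1, the point of highest signal in a peak, had a summit of replicate 2 and a summit of replicate 3 within 100 bp, and it was counted as inside a gene where the replicate 1 summit fell within a gene row of the SK1 annotation. The 3 peak lists held 2039, 2082 and 2028 summits. The other 1067 replicated summits lay between genes. Gene rows covered 69.6% of the annotated span. The 495 summits fell in 439 genes, called hosts here, of which 394 held 1 summit, 38 held 2 and 7 held 3 or more, with a maximum of 5. All but 1 of the summits were in a row annotated as coding sequence.

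The ChIP-seq cells (strain UB3301) carried UME6-3V5 at both copies and were grown to saturation in the acetate medium BYTA, and Ume6 was precipitated with an antibody to V5 and set against the input chromatin of each replicate. RNA-seq was measured in 2 strains at 0, 2, 3 and 4 h in sporulation medium (SPO), with 3 libraries for each strain and time. Strain UB22629 carried ume6(T99N)-3V5 in place of UME6, marked with KanMX, together with pCUP1-3HA-IME1 and pCUP-IME4, and strain UB20649 carried wild-type UME6-3V5, marked with His3MX, together with pCUP1-3HA-IME1 and pCUP1-3HA-IME4. Transcript leader sequencing (TL-seq) and MNase-seq came from strain UB14584, which carries untagged wild-type UME6, pCUP-IME1, pCUP-IME4 and the BY4741 allele of AMN1. Every strain thus carries IME1 and IME4 under a copper-inducible promoter, and 50 µM CuSO4 was added after 2 h in SPO, so the 2 h samples precede copper and the 3 h and 4 h samples follow it. The binding data are from cells before sporulation medium and from wild-type Ume6 only, so binding at 2 h or 4 h and binding of the T99N protein were not measured.

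Ume6 is a zinc-cluster protein that binds the upstream repression site URS1. In growing cells it keeps early meiotic genes off by recruiting the Sin3-Rpd3 histone deacetylase and the Isw2 remodeller, and in cells entering meiosis the transcription factor Ime1 joins it and the same sites become activating. The T99N substitution weakens the contact with Ime1. Ume6 sites can also lie upstream of long undecoded transcript isoforms (LUTIs), 5′-extended mRNAs that start far upstream of a gene, in some cases within the gene next door.

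The letters of URS1 occur near many of these summits. The 8-base string TAGCCGCC and the 6-base string GCCGCC that it contains were searched for on both strands of the S288C sequence from RefSeq, build R64, within 100 bp of each summit, in the genes whose SK1 and S288C rows have the same length. The runs printed here are strong summits with a match and summits that the later results turn on. Each is written 5′ to 3′ on the strand that reads GCCGCC, with the matched letters in capitals. The first group shows 5 interior summits of over 60-fold enrichment and the strongest of all 495 summits, in DPI8.
DPI8 (chrX:159807-159836, minus strand): aagtaccagatTAGCCGCCgccgtctcttc
NAT4 (chrXIII:408296-408325, minus strand): gcatgctccagTAGCCGCCgaccgattcca
YFR018C (chrVI:183378-183407, minus strand): cgaatcggcatTAGCCGCCgaagtcgcgcg
SCS3 (chrVII:271850-271877, minus strand): caggtcattgaGCCGCCgccacaccgcc
UME6 (chrIV:866850-866877, minus strand): aaaatacatttGCCGCCaccacaagctc
NAR1 (chrXIV:198932-198961, minus strand): tgatcgcataaTAGCCGCCgccagcgagct
The matches of NAT4, YFR018C, SCS3, UME6 and NAR1 were centred at offsets of -9.5, -10.5, -6.5, -15.5 and 1.5 bp from the summit, where a negative offset lies towards the start of the host gene. The 8-base matches of DPI8, ZIP1, MSH4 and SPO11 lay further away, at offsets of -31.5, -67.5, -69.5 and 30.5 bp. DPI8 also had a separate 6-base match, not printed, at an offset of -9.5 bp. The next runs belong to start-proximal summits of meiotic genes (ZIP1, MSH4 and SPO11), to neighbour-upstream summits (REC8 and RTS2) and to an interior summit of SCC4.
REC8 (chrXVI:569454-569483, minus strand): cagcagacagaTAGCCGCCagtgccttcct
ZIP1 (chrIV:1032405-1032434, minus strand): ctctaaaaattTAGCCGCCgagggtatttt
MSH4 (chrVI:137083-137112, plus strand): gtttgaagaatTAGCCGCCgaccttaaatt
SPO11 (chrVIII:63975-64004, plus strand): ctctaatgaatTAGCCGCCaatgacaggaa
RTS2 (chrXV:472390-472419, plus strand): gcaagaagtcaTAGCCGCCgagcttttgaa
SCC4 (chrV:463504-463531, plus strand): ggctcactcttGCCGCCtgcactgtgta

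Of the 495 summits, 401 lay in genes of equal length and had such a window. The 8-base string was present in 40 of the 401 windows (9.98%), against 153 of 71347 windows of 201 bp tiled along all genes of equal length (0.214%). The 6-base string was present in 177 windows (44.1%), against 2148 tiled windows (3.01%). Where a match was present it lay close to the summit, at a median distance of 11 bp for the 8-base string and 10.5 bp for the 6-base string. Matches stood in either orientation to the host gene, with 20 of the 8-base matches on the coding strand and 20 on the other. The share of windows with the 8-base string was 3.96% for summits of up to 5-fold mean enrichment, 9.35% for 5- to 10-fold, 19.6% for 10- to 20-fold and 30.6% (11 of 36) for over 20-fold. The share with the 6-base string was 39.1%, 39.3%, 53.6% and 72.2% in the same order. The strongest tier thus held both strings most often, while the 6-base share of the 2 lower tiers was nearly equal. Interior summits of over 10-fold held the 8-base string in 14 of 56 windows (25%). No exact match to either string was present in the window of ART5. A match is a description of the S288C letters, and the SK1 sequence was not read here.

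**Figure D1:**
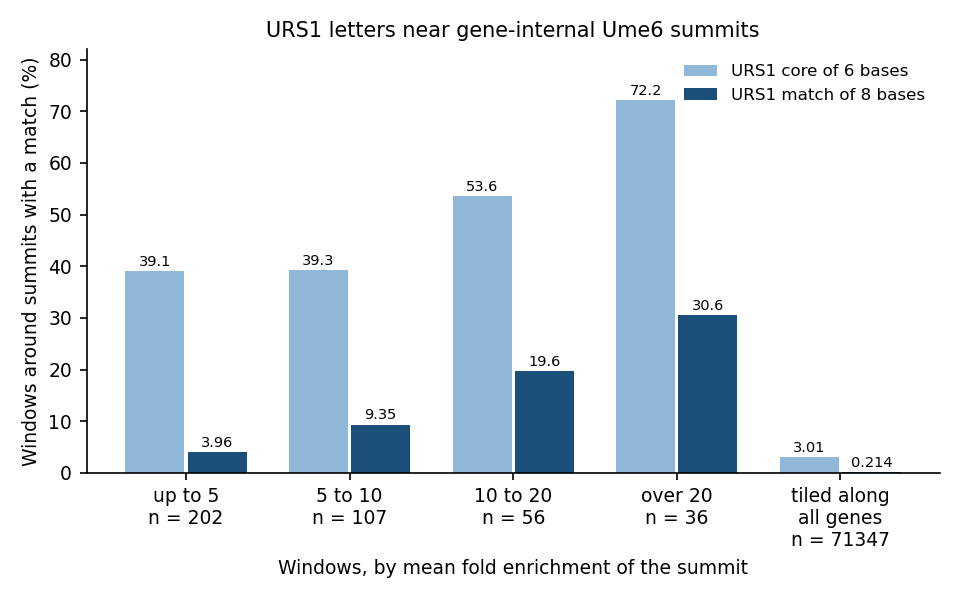
Share of 201-bp windows that hold the 6-base string GCCGCC (light bars) or the 8-base string TAGCCGCC (dark bars), in percent, for gene-internal summits in 4 tiers of mean fold enrichment and for windows tiled along all genes of equal length. The 8-base share is 3.96% in the lowest tier, 30.6% in the highest and 0.214% in the tiled windows.

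The RNA libraries held between 5013205 and 20865934 reads. IME1 served as a check of the copper induction: in ume6(T99N) it was at 69.0 to 90.6 CPM, the library-size-scaled read count, at 0 h and 5309 to 5823 CPM at 4 h, and in wild-type UME6 at 52.8 to 68.3 CPM at 0 h and 2514 to 3944 CPM at 4 h. The library of ume6(T99N) 2 h replicate 1 stood apart, with 1870 CPM of IME1 before copper, against 74.5 and 91.2 CPM in replicates 2 and 3 and 59.2 to 111 CPM in the wild-type 2 h libraries. Counts that rest on this library are therefore also given without it, some of them as totals only. Nothing in the labels says whether replicates were separate cultures, so p-values measure the spread between these libraries.

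Summits inside genes were weaker than those between genes. Their mean fold enrichment over input had a median of 5.14 (range 2.08 to 233), against 7.65 for summits between genes. In replicates 1, 2 and 3 the medians were 5.48, 5.04 and 4.64 inside genes, against 7.18, 7.86 and 7.28 between genes. The inside medians were below the between medians in all 3 replicates, by -0.56 ± 0.15 on the log2 scale (SD, n = 3), and an exact two-sided sign-flip test over the replicates gave p = 0.25, the smallest value that 3 replicates allow. Among summits over 4-fold in every replicate (242 inside and 735 between genes) the difference was -0.27. Enrichment over 4-fold in all 3 replicates was seen for 48.9% of the inside summits and 68.9% of the summits between genes, and a mean over 10-fold for 116 (23.4%) and 424 (39.7%). The inside set also reached high values, with 53 summits over 20-fold, 20 over 50-fold (4.04%, against 87 or 8.15% between genes) and 20 of the 100 strongest replicated summits.

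The rule admitted only summits whose replicates lay within 100 bp, so closeness up to that limit was fixed by selection. Within it, the median distance of a replicate 2 or 3 summit from that of replicate 1 was 9 bp, and 79.6% lay within 20 bp. The median coefficient of variation of the fold enrichment was 18.8%. Replicate 3 gave the lowest value at 266 summits, replicate 2 at 142 and replicate 1 at 87. At 14 summits the replicate 2 or replicate 3 summit lay outside the host row. At the edge of the 100 bp rule, the weak summits in PIR3 (4.59, 4.16 and 2.37-fold in replicates 1 to 3, with summits 100 bp apart) and ADY2 (3.09, 1.97 and 2.33-fold, 95 bp apart) were inside it, and summits in YBL029W (4.24, 5.93 and 7.61-fold, 104 bp apart) and GMC2 (11.0, 9.06 and 14.7-fold, 111 bp apart) were outside it.

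Position within the gene separated the summits into 3 classes. Of the 495, 113 lay within 150 bp of the start codon of their host (start-proximal), 55 of the rest lay 1 to 500 bp upstream of the start codon of another gene (neighbour-upstream), and 327 did neither (interior). Median fold enrichment was 5.62 for the start-proximal class, 6.78 for the neighbour-upstream class and 4.73 for the interior class. Along the host, from start to stop, 10 equal bins, each taking its upper edge, held 95, 61, 42, 35, 37, 29, 31, 49, 56 and 60 summits. Both ends were thus fuller than the middle: 199 summits lay within 150 bp of either end, a stretch that made up 17.9% of host length. The 68 interior summits of over 10-fold lay at a median of 66.8% along the gene, with 43 beyond its midpoint, and the 259 weaker interior summits at 51.3%, with 134 beyond it. Another replicated summit lay within 300 bp of 17 of the 68 strong interior summits (25%) and of 13 of the 259 weaker ones (5.02%).

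**Figure D2:**
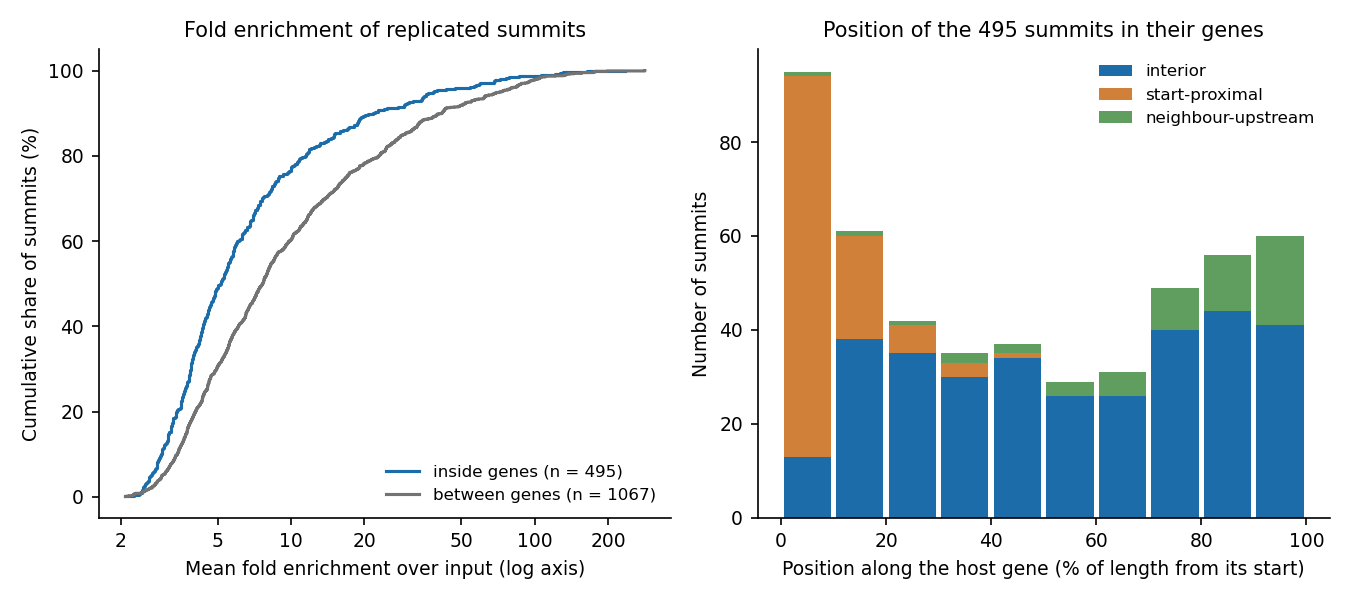
Left, cumulative share (%) of replicated summits by mean fold enrichment over input (log axis), for summits inside genes (n = 495) and between genes (n = 1067). Right, number of the 495 inside summits by position along the host gene in 10 equal bins from the start codon, coloured by class. The inside curve lies to the left of the between curve over most of its length, and the first bin holds 95 summits and the sixth 29.

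The strongest gene-internal summit was in DPI8, a gene of 225 bp, at base 58 of the gene, with 233, 187 and 279-fold enrichment in replicates 1, 2 and 3. The next belonged to PAC11, which encodes a dynein intermediate chain, with 209, 158 and 124-fold enrichment at base 1351 of 1599, 456 bp upstream of the start of RIB3. PAC11 held a further interior summit of 35.8-fold mean enrichment. The strongest interior summit was in NAT4, the N-terminal acetyltransferase of histones H4 and H2A, with 174, 108 and 109.7-fold enrichment at base 612 of 858 (SK1 chrXIII:380121). YFR018C followed with 139, 136 and 106-fold enrichment at base 841 of 1092, and PTK1, a putative kinase of polyamine transport, with 126, 91.3 and 102-fold enrichment at base 1700 of 1983. In each of these genes the lowest replicate of the leading summit exceeded 90-fold, so the high values did not rest on a single replicate.

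Summits of similar height also lay in genes of membrane, RNA and iron metabolism. SCS3, which acts in phospholipid metabolism, had 98.0, 67.6 and 75.1-fold enrichment at base 874 of 1143. PUS2, a pseudouridine synthase of mitochondrial tRNA, had 93.7, 81.7 and 52.6-fold enrichment at base 813 of 1355. NAR1, an iron-sulfur cluster assembly protein, had 73.1, 72.3 and 58.8-fold enrichment. Several of these genes held a weaker companion summit, with mean enrichments of 17.0 in YFR018C, 43.4 and 6.37 in PTK1, 13.7 in SCS3, 29.9 in PUS2 and 8.53 in NAR1. SHR5, a subunit of the Ras palmitoyltransferase, GTT3 and ART5, an adaptor for ubiquitin ligation at the membrane, had mean enrichments of 62.8 ± 12.1, 59.3 ± 9.27 and 57.2 ± 10.4 (SD, n = 3). Among neighbour-upstream summits, URN1, a splicing-associated protein, had 103, 85.8 and 70.4-fold enrichment 454 bp upstream of SUE1, and SWT21 had 89.8, 65.5 and 80.1-fold enrichment 443 bp upstream of UBP10, a deubiquitinase. SK1_12G04250, a gene named only by its SK1 identifier, had 160, 94.4 and 108-fold enrichment 342 bp upstream of PUN1 and had no RNA-seq feature.

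UME6 was itself a host. Its interior summit lay at base 675 of 2511 (SK1 chrIV:855044, in a gene row from 853208 to 855718 on the minus strand), with 96.6, 63.9 and 54.9-fold enrichment in replicates 1, 2 and 3. The 6-base string lay 15.5 bp from it, printed above. The lowest of the 3 values exceeded the mean of the strongest summit upstream of the UME6 start codon, which was 17.0.

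**Figure D3:**
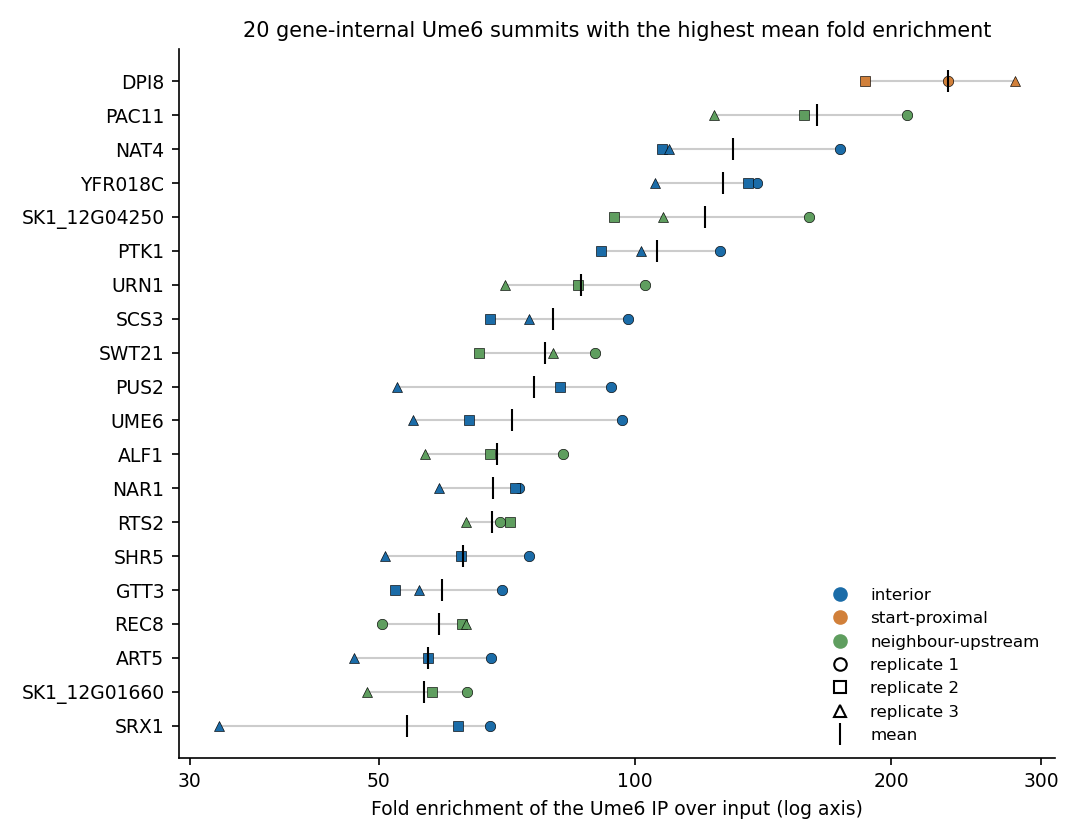
Fold enrichment of the Ume6 IP over input (log axis) in replicates 1 (circles), 2 (squares) and 3 (triangles) for the 20 gene-internal summits with the highest mean, marked by a bar and coloured by class. DPI8 lies at 187 to 279 and SRX1, the lowest of the 20, has a mean of 54.0.

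Ume6 summits were also present at the very start of several meiotic genes. HFM1, a helicase of crossover formation, had 15.0, 54.2 and 49.6-fold enrichment in replicates 1, 2 and 3. ZIP1, the transverse filament of the synaptonemal complex, had 14.9, 58.0 and 42.2-fold enrichment. MSH4, a crossover-promoting MutS homologue, had 13.1, 33.3 and 40.7-fold enrichment, and ECM11, a synaptonemal complex protein, had 4.82, 31.2 and 30.5-fold enrichment. Replicate 1 was the lowest for each of these, and the replicate 2 and 3 summits of ZIP1 lay outside the gene row. SPO11, which makes the meiotic DNA breaks, had 20.6, 18.8 and 17.9-fold enrichment. REC8, the meiotic cohesin subunit, had a summit of 50.5, 62.7 and 63.4-fold near its end, at base 1909 of 2043, upstream of ICL2.

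RNA levels of the host genes were then followed before and after copper. Of the 439 hosts, 425 had an RNA-seq feature and 424 passed the filter on low counts. Between 2 h and 4 h in wild-type UME6, 174 of 424 hosts rose (41.0%) and 108 fell (25.5%), against 32.3% and 30.8% (63.1% in all) of the 5486 features tested (edgeR's quasi-likelihood test, adjusted p under 0.05). All 4 h libraries lay above all 2 h libraries for 183 hosts and below them for 113, against 35.1% and 32.5% of all features, and in T99N this held for 93 and 93 hosts, against 21.5% and 21.7%. In wild type the median host changed by 0.19 on the log2 scale and the median of all features by 0.02. In ume6(T99N), 38 hosts rose and 53 fell over the same hours, against 9.77% and 11.1% (20.8% in all) of all features. In the test of the strain difference (change in T99N minus change in wild type), 56 hosts were higher and 125 lower (29.5%), against 18.2% and 17.5% (35.7% in all) of all features, with a median of -0.23 for hosts and -0.03 for all features. Without ume6(T99N) 2 h replicate 1 the T99N counts were 59 and 77, beside 915 and 843 of all features. The strain difference counts were then 55 and 126, beside 1113 and 922 of all features. The T99N total of 91 hosts was 3 without both strains' replicate 2 and 5 without their replicate 3, and the strain difference total of 181 was 109 and 105. Calls over all features dropped as well. In T99N they went from 536 higher and 607 lower to 8 and 78 without replicate 2 and 24 and 93 without replicate 3. In the strain difference they went from 998 and 958 to 513 and 452, and to 597 and 497.

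The split into higher and lower hosts depended on the scaling. Without the TMM correction for library composition, the median of all features moved by 0.41 on the log2 scale in wild-type UME6, the wild-type split was 235 hosts higher and 56 lower, and all features split into 2526 higher and 898 lower. The strain difference split was then 24 hosts higher and 183 lower, beside 405 and 1556 of all features, and the T99N split 19 and 28, beside 191 and 356. T99N against wild type split into 99 hosts higher and 23 lower at 2 h, beside 1047 and 503 of all features, and into 42 and 209 at 4 h, beside 613 and 1856. The counts below use TMM and describe changes relative to the other genes.

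Between 2 h and 4 h in wild-type UME6 the host classes gave similar shares. Of all features, 32.3% rose and 30.8% fell in this comparison. Hosts of interior summits rose in 116 of 287 cases and fell in 78 between 2 h and 4 h in wild-type UME6, hosts of start-proximal summits rose in 46 of 107 and fell in 25, and hosts of neighbour-upstream summits rose in 18 of 49 and fell in 9. Hosts of interior summits over 10-fold rose in 26 of 55 cases (47.3%) and fell in 11 (20%), and those of weaker interior summits rose in 90 of 232 (38.8%) and fell in 67 (28.9%). A summit in the 500 bp upstream of the host's own start codon was present for 145 of the 495 summits (29.3%). Among hosts with interior summits only, 33 of 83 with such an upstream summit rose and 26 fell, and 77 of 187 without it rose (41.2%) and 49 fell (26.2%). At 4 h, T99N was higher than wild type for 13.1% of start-proximal hosts and lower for 48.6%. For interior hosts these shares were 20.6% and 33.4%, and for all features 23.9% and 25.2%. Differences between these subsets were not tested.

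**Figure D4:**
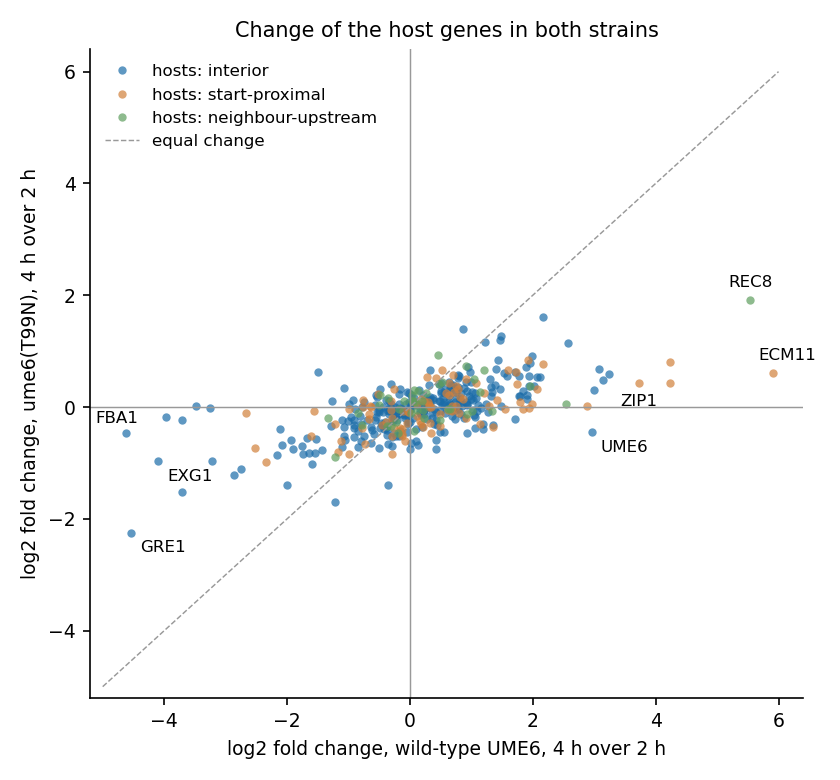
log2 fold change of each tested host gene from 2 h to 4 h in ume6(T99N) (vertical axis) against wild-type UME6 (horizontal axis), coloured by the class of its summit, with genes that hold summits of several classes drawn under interior where they have an interior summit. Below the dashed line of equal change lie REC8, at 1.92 in T99N and 5.53 in wild type, and UME6, at -0.45 and 2.96, and above it lies FBA1, at -0.47 and -4.62.

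UME6 RNA differed between the strains at every time. In ume6(T99N) it was at 515, 587 and 519.9 CPM at 0 h, 486, 779.8 and 785 at 2 h, 610.1, 487 and 723 at 3 h and 505, 507 and 461 at 4 h. In wild-type UME6 it was at 124, 150.3 and 152 CPM at 0 h, 189, 230.0 and 215 at 2 h, 987, 1314 and 2378 at 3 h and 1403, 1342 and 2229 at 4 h. The T99N libraries thus lay above all wild-type libraries before copper and below all of them at 3 h and 4 h, without overlap. From 2 h to 4 h the log2 change was -0.45 ± 0.21 (SE) in T99N (adjusted p = 0.15) and 2.96 ± 0.23 in wild type (adjusted p = 1.5e-07), and their difference was -3.41 ± 0.31 (adjusted p = 3.8e-06). T99N exceeded wild type by 1.93 ± 0.26 at 0 h and 1.69 ± 0.22 at 2 h. The 2 alleles carry different marker genes at this locus, so the allele and its marker cannot be told apart.

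Several hosts of strong interior summits rose in wild type and did not pass the test in T99N. RRN5, a subunit of the RNA polymerase I upstream activating factor with a summit of 40.7, 31.8 and 36.5-fold, had 52.4, 55.8 and 53.7 CPM at 4 h and 45.9, 44.6 and 43.5 at 2 h in ume6(T99N). In wild type it had 94.2, 94.7 and 87.1 CPM at 4 h and 18.1, 35.8 and 22.0 at 2 h. All wild-type 4 h libraries lay above every other library of these 4 groups, and the strain difference was -1.55 ± 0.26 (adjusted p = 0.00056). PAC11 had 28.2, 21.6 and 19.0 CPM at 4 h and 22.0, 15.4 and 16.1 at 2 h in T99N, and 61.2, 60.9 and 61.7 at 4 h and 11.5, 17.7 and 15.3 at 2 h in wild type, with a strain difference of -1.66 ± 0.28 (adjusted p = 0.00054). CAR2, the ornithine transaminase of arginine breakdown with an interior summit of 18.8-fold and a summit of 133-fold upstream of its start, had 876, 879 and 1006 CPM at 4 h and 648, 899.6 and 882 at 2 h in T99N, and 2600.4, 2607 and 2199 at 4 h and 448, 898 and 603 at 2 h in wild type. For PAC11 and CAR2 the wild-type 4 h values were above all others, and the strain difference of CAR2 was -1.70 ± 0.32 (adjusted p = 0.0011).

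PUS2 differed from these in its level before copper. It had 33.3, 26.3 and 27.9 CPM at 4 h and 38.0, 34.1 and 37.6 at 2 h in T99N, and 32.1, 36.1 and 47.0 at 4 h and 11.9, 20.4 and 17.5 at 2 h in wild type. The T99N 2 h libraries were all above the wild-type 2 h libraries, by 1.14 ± 0.20 (adjusted p = 0.0013), while at 4 h the strains overlapped. The wild-type rise was 1.18 ± 0.20 and the strain difference -1.49 ± 0.28 (adjusted p = 0.0011). NAT4 was low throughout, with 8.06, 6.29 and 6.90 CPM at 4 h and 6.68, 9.01 and 8.31 at 2 h in T99N, and 9.81, 10.4 and 9.98 at 4 h and 3.09, 6.97 and 4.24 at 2 h in wild type. It rose by 1.05 ± 0.26 in wild type (adjusted p = 0.0030), with a strain difference of -1.19 ± 0.37 (adjusted p = 0.024) that did not pass without replicate 2 (-1.40) or replicate 3 (-1.05). GTT3 had 56.3, 58.6 and 56.5 CPM at 4 h and 51.9, 48.6 and 43.4 at 2 h in T99N, and 109, 103 and 118 at 4 h and 46.0, 61.7 and 54.9 at 2 h in wild type, where the groups did not overlap and the rise was 1.00 ± 0.12 (adjusted p = 9.9e-06). The strain difference of GTT3, -0.73 ± 0.18, did not pass without replicate 1 (-0.53) or replicate 3 (-0.74).

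Other strong hosts fell or did not pass. PTK1 had 166, 182 and 163 CPM at 4 h and 175, 238 and 203 at 2 h in T99N, and 76.1, 88.2 and 89.0 at 4 h and 122, 235 and 148 at 2 h in wild type, where it fell by 1.01 on the log2 scale (adjusted p = 0.00051). Its strain difference of 0.77 ± 0.28 did not pass without ume6(T99N) 2 h replicate 1 (0.68) or without replicate 2 (0.54) or replicate 3 (0.92), nor without TMM (0.32). DPI8, the host of the strongest summit, had 25.2, 27.9 and 26.7 CPM at 4 h and 29.7, 20.4 and 28.6 at 2 h in T99N, and 42.4, 49.4 and 31.0 at 4 h and 44.98, 74.03 and 72.66 at 2 h in wild type. Its wild-type values overlapped between the hours, its change there was -0.66 ± 0.21 (adjusted p = 0.014), and it did not pass without replicate 3 (-0.41) or without TMM (-0.24). YFR018C, SCS3, NAR1 and SHR5, with summits of 62.8- to 127-fold, had wild-type changes of 0.37 ± 0.19, 0.32 ± 0.29, -0.29 ± 0.18 and 0.38 ± 0.20, none past the threshold. For YFR018C the libraries ran from 216 to 261 CPM in T99N and from 198 to 393 CPM in wild type at 2 h and 4 h, so the groups overlapped. ART5 changed by -0.38 ± 0.13 in wild type (adjusted p = 0.023). That direction turned without TMM (0.035), and the call did not hold without replicate 1 (-0.40) or replicate 2 (-0.23). Strong summits were thus found in hosts that rose, in hosts that fell and in hosts that did not pass the test.

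Meiotic genes with a summit at or near their ends were low before copper in wild type and rose after it. ECM11 had 41.9, 41.1 and 41.5 CPM at 4 h and 26.3, 26.2 and 29.8 at 2 h in ume6(T99N), and 264, 232 and 346 at 4 h and 6.82, 4.64 and 2.23 at 2 h in wild type. REC8 had 404, 432 and 431 CPM at 4 h and 186, 77.4 and 72.8 at 2 h in T99N, and 1651, 1542 and 1764 at 4 h and 47.3, 30.5 and 27.9 at 2 h in wild type. ZIP1 had 107, 116 and 107 CPM at 4 h and 80.2, 89.2 and 78.0 at 2 h in T99N, and 734, 621 and 868 at 4 h and 70.1, 47.8 and 48.2 at 2 h in wild type. For all 3 genes the wild-type 2 h libraries were the lowest of these 12 and the wild-type 4 h libraries the highest. The wild-type changes were 5.91 ± 0.27, 5.53 ± 0.37 and 3.72 ± 0.18, and the strain differences -5.30 ± 0.35, -3.61 ± 0.44 and -3.29 ± 0.23 (adjusted p = 3.2e-07, 4.4e-05 and 4.0e-07). REC8 also rose in T99N, by 1.92 ± 0.31 (adjusted p = 0.0017), and the ume6(T99N) 2 h replicate 1 library was the highest of its 2 h libraries. The strain difference of REC8 was -3.01 without that library. MSH4 and HFM1 had strain differences of -3.43 ± 0.24 and -2.87 ± 0.23.

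Over the list of 33 recombination and synapsis genes, 8 were hosts, 6 with a start-proximal and 2 with a neighbour-upstream summit and none with an interior summit. All 8 rose in wild type, with a median of 3.98, and all 8 were lower in the strain difference, with a median of -3.36, against the medians of 0.02 and -0.03 over all features. Among 73 genes that the study lists as canonical Ume6 targets, 14 were hosts, 9 with an interior, 3 with a start-proximal and 2 with a neighbour-upstream summit. Of these 14, 8 rose and 2 fell in wild type (median 0.58), against 32.3% and 30.8% of all features. In the strain difference 3 were higher and 7 lower (median -0.73), against 18.2% and 17.5% of all features. The 2 that fell were PTK1 and SOL4, a 6-phosphogluconolactonase, whose interior summit had 2.68-fold enrichment and which changed by -1.50 ± 0.18. That list holds Ume6 targets identified before the study and is not independent of Ume6 binding. Of 28 metabolic genes with a URS1 connection only CAR2 was a host. Of 74 genes with 5′-extended isoforms, 2 were hosts: CDC60, the leucyl-tRNA synthetase, with a summit of 2.62-fold and a wild-type rise of 0.81 ± 0.11 (adjusted p = 2.6e-05), and TIM23, a mitochondrial import channel subunit, with a summit of 3.94-fold and a change of 0.21 ± 0.13 (adjusted p = 0.18). RNA-seq features of such genes count both isoforms together. For CDC60 the study reports an intermediate repression, in meiotic prophase, of the isoform that starts nearer the coding sequence.

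**Figure D5:**
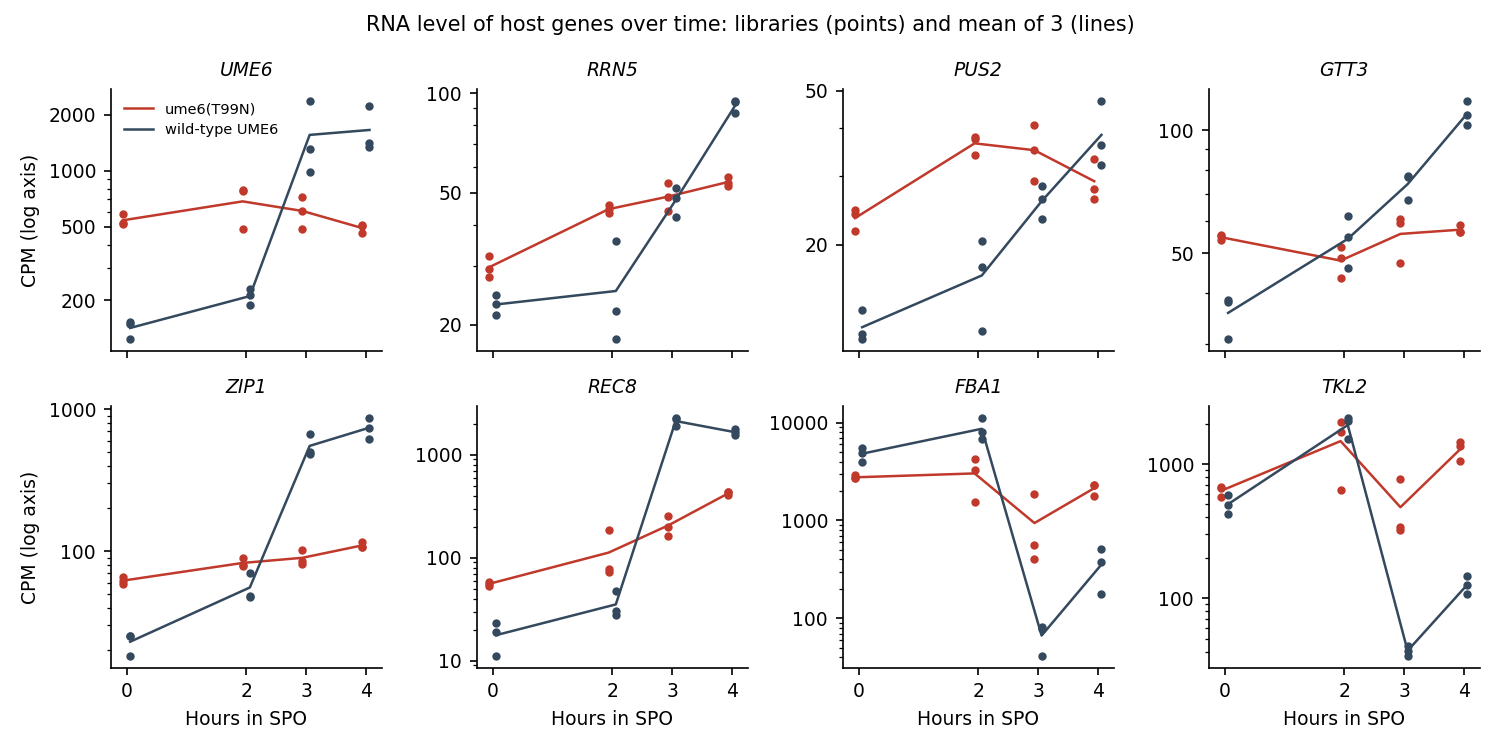
RNA level (CPM, log axis, a separate scale in each panel) of 8 host genes at 0, 2, 3 and 4 h in SPO in ume6(T99N) (red) and wild-type UME6 (dark blue), with points for libraries and lines through the mean of 3. UME6, RRN5, ZIP1 and REC8 end higher in wild type, FBA1 and TKL2 end higher in T99N, and PUS2 is higher in T99N at 0 h and 2 h.

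Apart from UME6, the largest changes among interior hosts belonged to genes with weak summits. The 5 hosts that rose most in wild type were GMC1 (3.24 on the log2 scale, mean enrichment 3.68-fold), YGL081W (3.14, 6.99-fold), FKS3, a homologue of glucan synthase that acts in spore wall formation (3.08, 3.02-fold), AMA1, a meiosis-specific activator of the anaphase-promoting complex (3.00, 4.27-fold), and UME6 (2.96, 71.8-fold). FKS3 also had a summit of 74.5-fold upstream of its start. Strain differences were -2.66 ± 0.19, -2.66 ± 0.20, -2.40 ± 0.17 and -2.69 ± 0.20 for GMC1, YGL081W, FKS3 and AMA1. AMA1, for instance, had 136, 127 and 139 CPM at 4 h and 113, 117 and 100.5 at 2 h in T99N, and 452, 531 and 581 at 4 h and 78.2, 56.5 and 58.4 at 2 h in wild type, with the wild-type 4 h libraries above all others.

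The 5 hosts that fell most were FBA1, the glycolytic aldolase (-4.62, 2.84-fold), GRE1, a stress-induced hydrophilin (-4.54, 4.14-fold), EXG1, a cell wall glucanase (-4.09, 2.96-fold), TKL2, a transketolase (-3.97, 3.82-fold), and HBT1 (-3.71, 3.896-fold). FBA1 had 2298, 1790.2 and 2325 CPM at 4 h and 1540.4, 3298 and 4229 at 2 h in T99N, and 514, 374 and 177 at 4 h and 6714, 11169 and 8023 at 2 h in wild type. TKL2 had 1369.7, 1054 and 1452 CPM at 4 h and 646, 1737 and 2071 at 2 h in T99N, and 147.4, 125.4 and 106.7 at 4 h and 1540.1, 2213 and 2114 at 2 h in wild type. Both genes had every wild-type 4 h library below all others. In T99N they overlapped between the hours only through the 2 h replicate 1 library, and without it every T99N 4 h library lay below both 2 h libraries. The strain differences without that library were 3.84 for FBA1 and 3.44 for TKL2. EXG1 and GRE1 also fell in T99N, by 0.97 and 2.25 on the log2 scale (adjusted p = 0.0029 and 0.00073). Strain differences ran from 2.29 ± 0.42 for GRE1 to 4.15 ± 0.56 for FBA1, all past the threshold. These hosts were highly expressed at 2 h, with 879 to 11169 CPM in wild type. Per kilobase, hosts of interior summits up to 10-fold had a median of 66.2 CPM at 0 h in wild type, hosts of interior summits over 10-fold 55.8 CPM and all features 55.6 CPM, and 14.1% of the weaker and 8.96% of the stronger interior summits lay in a host in the top 10% of all features. Whether the level of a gene contributes to weak summits within it was not tested.

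Host changes were then followed over each interval. In wild-type UME6, 165 hosts rose and 133 fell from 2 h to 3 h (35% and 31.2% of all 5488 features, 66.2% in all), 120 rose and 55 fell from 3 h to 4 h (20.6% and 18.1%, 38.7% in all), and 129 rose and 91 fell from 0 h to 2 h (25.1% and 25%, 50.1% in all). In ume6(T99N), 4 rose and 27 fell from 2 h to 3 h (1.17% and 3.35% of all features, 4.52% in all), 33 rose and 29 fell from 3 h to 4 h (4.99% and 9.24%, 14.2% in all), and 99 rose and 82 fell from 0 h to 2 h (21.8% and 20.1%, 41.9% in all). The T99N count for 2 h to 3 h rested on its libraries: 41 rose and 75 fell without ume6(T99N) 2 h replicate 1, beside 682 and 613 of all features. None passed, of the hosts or of all features, without both strains' replicate 2 or replicate 3. There edgeR's test gave 107 features higher and 161 lower, and 107 higher and 206 lower, at an unadjusted p under 0.05. DESeq2 on all libraries called 13 hosts higher and 43 lower. It also called more of all features, 154 higher and 329 lower of 5491, against 64 and 184 with edgeR.

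With every library in the fit, more hosts were higher than lower in ume6(T99N) before copper. At 0 h 101 hosts were higher and 42 lower, against 18.4% and 18.6% (37% in all) of all features, and at 2 h 86 were higher and 47 lower, against 19.1% and 18.5% (37.6% in all). At 3 h 108 were higher and 152 lower, against 27.6% and 29.4% (57% in all), and at 4 h 77 were higher and 159 lower, against 23.9% and 25.2% (49% in all). In the fits with every library the order of higher and lower hosts was thus the other way round after copper. At 2 h the hosts furthest above wild type were ECM11 (2.58 ± 0.26), YGL081W (1.73 ± 0.14) and SCC4, a cohesin loader (1.71 ± 0.23), and the furthest below were FBA1 (-1.52 ± 0.39), YDL218W (-1.31 ± 0.31) and RPL21A, a ribosomal protein (-1.29 ± 0.25). SCC4 held 3 interior summits of 25.7, 12.7 and 11.5-fold mean enrichment. It had 174, 211 and 200.5 CPM in T99N, against 50.7, 73.9 and 54.0 CPM in wild type at 2 h, without overlap (adjusted p = 0.00036). The 2 h total of 133 hosts was 150 without ume6(T99N) 2 h replicate 1, 36 without both strains' replicate 2 and 69 without their replicate 3, and the 0 h total of 143 was 32 without replicate 2. All features split at 2 h into 1048 higher and 1017 lower with every library, and into 1090 and 1304 without ume6(T99N) 2 h replicate 1. They split into 270 and 248 without replicate 2 and into 634 and 628 without replicate 3. At 0 h all features went from 1008 higher and 1020 lower to 168 and 113 without replicate 2. The split of the 32 hosts at 0 h is not given. The higher and lower shares of the 150 hosts are not given, so the 2 h order of hosts is stated only for the fit with that library.

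The genes whose start codon lay 1 to 500 bp downstream of a neighbour-upstream summit numbered 54 with RNA values. Of these, 22 rose (40.7%) and 14 fell (25.9%) from 2 h to 4 h in wild-type UME6, against 32.3% and 30.8% of all features. In the strain difference 6 were higher (11.1%) and 14 lower (25.9%), against 18.2% and 17.5% of all features. The largest rises were those of BUD21, a component of the small-subunit processome, next to the summit in RTS2, SCT1, a glycerol-3-phosphate acyltransferase, next to FMT1, and ICL2, next to REC8. BUD21 had 40.6, 47.6 and 39.8 CPM at 4 h and 48.6, 52.1 and 49.9 at 2 h in T99N, and 125, 140.1 and 149 at 4 h and 36.1, 24.9 and 24.1 at 2 h in wild type. SCT1 had 128, 132 and 116 CPM at 4 h and 102, 154 and 123 at 2 h in T99N, and 327, 348 and 293 at 4 h and 81.8, 96.8 and 77.8 at 2 h in wild type. In both genes the wild-type 4 h libraries exceeded all others, with strain differences of -2.48 ± 0.21 and -1.89 ± 0.20. SCT1 also has a distal start listed by the study, and its RNA-seq counts hold both isoforms. The start-site cluster assigned to SCT1 itself fell in TL-seq, by 1.56 on the log2 scale. The largest falls were those of CCW12, a cell wall protein (-2.24 ± 0.29), PCS60 (-1.10 ± 0.16) and PWP2, of the small-subunit processome (-1.08 ± 0.19). PWP2 and CCW12 fell in T99N too, by 0.91 and 1.34 on the log2 scale (adjusted p = 0.0077 and 0.0068).

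TL-seq, which counts the 5′ ends of capped RNA, was used to follow start sites near these summits. The clusters read were those assigned to a gene and the study's distal and proximal starts of 5′-extended isoforms. Other starts within genes, antisense starts and intergenic starts were not covered as such. The counts below thus do not include every start near a summit. Start-site clusters within 300 bp of a summit numbered 189, near 180 summits. From 2 h to 4 h, 79 of them rose and 36 fell (limma on the log2 of the value plus 1, adjusted p under 0.1), against 24.6% and 23.8% (48.4% in all) of 5114 clusters. Near start-proximal summits 51 of 106 clusters rose and 20 fell, and near interior summits 20 of 51 rose and 11 fell. Clusters assigned to the host itself rose in 68 of 150 cases, and those assigned to another gene in 11 of 39. The ECM11, MSH4, ZIP1 and SPO11 start sites rose by 9.96, 9.61, 8.93 and 8.03 on the log2 scale, with SPO11 at 2324, 2607 and 1923 normalized reads at 4 h, against 5.90, 9.12 and 8.30 at 2 h.

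Of the start-site clusters that the study lists as distal starts of 5′-extended isoforms, 3 lay within 300 bp of a gene-internal summit. The study admitted distal clusters by their TL-seq rise over these hours in the same libraries, so the direction of these 3 was fixed by their selection, and their TL-seq values are a description with no test. The distal start of SKI7, an exosome adaptor in mRNA decay, lay within RTS2 (SK1 chrXV:453978-454075), 65 bp from the summit of 68.0-fold whose URS1 letters are printed above. It had 68.7, 52.8 and 65.7 normalized reads at 4 h, against 0, 1.82 and 0 at 2 h (5.48 ± 0.58 SE on the log2 scale with a pseudocount of 1). The distal start of SCT1 lay within FMT1, a methionyl-tRNA formyltransferase (SK1 chrII:221459-221478), 243 bp from an interior summit of 18.2-fold, with 134, 82.4 and 179 normalized reads at 4 h, against 8.42, 15.5 and 14.2 at 2 h (3.25 ± 0.38). The distal start of DLD1, a mitochondrial D-lactate dehydrogenase, lay within PAR32 (SK1 chrIV:160933-161001) and overlapped an interior summit of only 5.61-fold, with 537, 591 and 419 normalized reads at 4 h, against 12.6, 11.9 and 7.12 at 2 h (5.51 ± 0.29). The 4 h values lay above the 2 h values of each gene without overlap. The RNA-seq features of these genes rose in wild type by 0.99 ± 0.12 for SKI7, 1.90 ± 0.15 for SCT1 and 0.34 ± 0.14 for DLD1 (adjusted p = 9.8e-06, 1.4e-07 and 0.044), with strain differences of -0.65 ± 0.17, -1.89 ± 0.20 and -0.10 ± 0.19 (adjusted p = 0.011, 1.5e-05 and 0.73). These features count both isoforms of a gene and do not separate them. The start-site cluster assigned to SCT1 itself lay 259 bp from the FMT1 summit of 34.0-fold. It had 21.7, 14.1 and 13.5 normalized reads at 4 h, against 85.1, 55.6 and 24.9 at 2 h (-1.56 ± 0.46, limma adjusted p = 0.023).

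The MNase-seq map, pooled over replicates and so without an error, gave a larger median distance to the nearest nucleosome centre for summits inside genes than between genes, while the share far from any centre ran the other way. The median distance from a summit to the nearest nucleosome summit at 4 h was 50 bp for gene-internal summits, against 37 bp for summits between genes and 42 bp for points set every 100 bp along genes. Distances over 80 bp were seen for 12.9% of gene-internal summits, against 19.5% of summits between genes and 8.46% of points along genes. It was 59 bp for start-proximal, 38 bp for neighbour-upstream and 49 bp for interior summits. The median signal of that nucleosome was 1127 at 4 h and 1118 at 2 h for gene-internal summits, 870 and 1018 for interior summits over 10-fold, 447 and 600.0 for summits between genes and 1138 and 1105 for points along genes. At gene-internal summits the nucleosome signal was thus close to that of genes in general. Its fuzziness score had medians of 49.5 bp at 4 h and 49.1 bp at 2 h, against 51.6 and 50.7 bp along genes.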

How the data were processed

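Ume6 ChIP-seq peaks were called by the authors with macs2 in each replicate against its input at q 0.001, after alignment with bowtie2 to SK1 and down-sampling to equal reads, and the deposited lists give fold enrichment over input at each summit. RNA-seq values were deposited as estimated counts from salmon, per coding region and for 74 extension regions, and were rounded. TL-seq values are a signal deposited by the authors as reads per start-site cluster (cutadapt, STAR, CAGEr) divided by size factors, and whole reads were recovered for 100% of values within 0.1 read. The nucleosome signal and fuzziness score were deposited by the authors from DANPOS, with replicates pooled.

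RNA counts were tested with edgeR 4.0.16 (TMM, quasi-likelihood, Benjamini-Hochberg adjusted p under 0.05) in R 4.3.3, over 12 libraries for 2 h and 4 h and over 24 for other intervals. TL-seq was tested with limma 3.58.1 on log2(value + 1) at adjusted p under 0.1. On the recovered reads edgeR called 1339 clusters higher and 1233 lower, an alternative chosen after seeing the data, as was leaving out ume6(T99N) 2 h replicate 1. DESeq2 1.42.0, no TMM, other windows, a replicate block and leaving out each replicate were further alternatives. Same-numbered TL-seq libraries deviated together (correlations 0.16, 0.17 and 0.38) and were taken as pairs for the block. The scripts were tested on simulated data and used Python 3.11.15, pandas 2.3.3 and NumPy 2.4.6. Depth was 5013205 to 20865934 reads for RNA-seq and 3214263 to 8295842 for TL-seq. The peak lists themselves give no depth, but the study states the read number to which the ChIP-seq libraries were down-sampled. Depth is unknown for the nucleosome table.

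Genes named were the 10 strongest summits overall and among interior summits, the 5 largest rises and falls among interior hosts and 3 among neighbour genes with groups that do not overlap, up to 5 hosts a gene list, and the 3 hosts furthest each way between strains at 2 h. The others (SOL4, SRX1 and the distal-start genes among them) were chosen after their values were seen. Members and lists were chosen with earlier results of these data known. The second TL-seq table, histone-mark tables and the authors' own fold changes and p-values were not used.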

Additional observations from a re-analysis of the deposited data

Results flagged for a closer look

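Strain differences in the 4 h against 2 h change passed the test of the difference itself (edgeR's quasi-likelihood test with Benjamini-Hochberg adjustment), in 181 of the 424 hosts tested, against 35.7% of all features, and in the named hosts and neighbour genes given here. Values are log2 differences, change in ume6(T99N) minus change in wild-type UME6. The difference was negative for ECM11 (-5.30), REC8 (-3.61), MSH4 (-3.43), UME6 (-3.41), ZIP1 (-3.29), HFM1 (-2.87), AMA1 (-2.69), YGL081W (-2.66), GMC1 (-2.66), BUD21 (-2.48), FKS3 (-2.40), SCT1 (-1.89), CAR2 (-1.70), PAC11 (-1.66), RRN5 (-1.55), PUS2 (-1.49), ICL2 (-1.31), NAT4 (-1.19), URN1 (-0.95), GTT3 (-0.73), SWT21 (-0.69) and CDC60 (-0.66). It was positive for FBA1 (4.15), TKL2 (3.80), HBT1 (3.47), EXG1 (3.12), GRE1 (2.29), RPL21A (1.80), PCS60 (1.12) and PTK1 (0.77). The differences of PTK1, GTT3, NAT4, SWT21, CDC60, URN1, PCS60 and ICL2 did not pass under every alternative. Groups of 3 libraries are too small for a check of single libraries against the rest.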

How the results depend on the processing

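Counts of called hosts depended most on which replicate was left out of both strains, where each group kept 2 libraries. The totals ran from 3 to 118 for ume6(T99N) 4 h against 2 h (91 with all libraries), 105 to 169 for the strain difference (181), 36 to 142 for T99N against wild type at 2 h (133), 137 to 214 at 4 h (236) and 32 to 122 at 0 h (143). They ran from 132 to 195 for wild type 2 h against 0 h (220), 83 to 137 for wild type 4 h against 3 h (175), 107 to 165 for T99N 2 h against 0 h (181), 0 to 103 for T99N 3 h against 2 h (31) and 14 to 48 for T99N 4 h against 3 h (62). Neighbour genes in the strain difference ran from 7 to 18 (20). Without replicate 2 or replicate 3, fewer of all features were called too, in each of these comparisons. At the count of 0, edgeR's quasi-likelihood test gave 107 features higher and 161 lower at an unadjusted p under 0.05 without replicate 2, and 107 and 206 without replicate 3. Leaving out only ume6(T99N) 2 h replicate 1, chosen after seeing the data, gave 136 for T99N 4 h against 2 h, 181 for the strain difference, 150 at 2 h, 190 for T99N 2 h against 0 h, 116 for T99N 3 h against 2 h and 21 neighbour genes in the strain difference.

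Other settings moved fewer counts. The 495 summits were 242 when over 4-fold in all replicates and 296 when 150 bp or more from both gene ends. T99N 4 h against 2 h gave 47 hosts without TMM, beside 191 higher and 356 lower of all features. T99N 3 h against 2 h gave 56 with DESeq2, beside 154 and 329 of all features. T99N against wild type at 4 h gave 155 with interior hosts only, where 287 were tested. Of the 287, 20.6% were higher and 33.4% lower, beside 18.2% and 37.5% of all 424 hosts. Over all features the shares were 23.9% and 25.2%. A 300 bp window left 7 neighbour genes called in wild type and 5 in the strain difference. It also held fewer neighbour genes than the 54 within 500 bp, a number not given here. Calls over all features, 63.1% and 35.7%, do not depend on the window. TL-seq clusters within 150 bp gave 66 calls, out of fewer clusters. Within 300 bp 115 of 189 were called, against 48.4% of all clusters. ART5 turned direction in wild type without TMM (0.035). Of 68 calls of named genes, 55 held under every alternative run. Peak lists and the nucleosome map give no depth, and no alternative bears on their counting error.

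With the replicate block, 281 hosts were called in wild type 4 h against 2 h, 79 in T99N, 173 in the strain difference and 130 TL-seq clusters, and no count of calls moved by over 1.5 times. Deviations of same-numbered RNA libraries correlated at -0.10, 0.20 and -0.05 in wild type and 0.25, 0.06 and 0.25 in T99N, so the RNA numbers were not taken as pairs.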
